A study of Eriocheir sinensis with 6 samples.

Results

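FMRFaR, GRM7, mth2 and gpr161 are genes of the Chinese mitten crab, Eriocheir sinensis, that are candidate G protein-coupled receptors of the molting cycle. They were taken by their gene IDs and are 4 of the 18729 genes with a deposited expression value. The names are those given to the IDs in the study. The IDs were evm.TU.CM024127.1.244 for FMRFaR, evm.TU.CM024146.1.116 for GRM7, evm.TU.CM024134.1.314 for mth2 and evm.TU.CM024164.1.176 for gpr161. They were chosen because their levels differed between post-molt and pre-molt muscle, so that difference is described here without a test. What was tested, or described, beside it are the other candidate genes of the pathway, the genes next to each receptor on its chromosome and the variation among crabs of 1 stage.

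RNA-seq had been carried out on muscle of 3 post-molt crabs, after shedding of the old shell, and 3 pre-molt crabs, before it, with 1 crab per library. All crabs were farmed juveniles of 8.41 ± 1.47 g kept at 20 ± 1 °C under natural light, and no treatment or allele separated the stages. The genotype and the sex of each animal are not in the labels.

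G protein-coupled receptors lie in the cell membrane, bind a ligand outside the cell and pass the signal to G proteins inside it, which change the level of second messengers such as cyclic AMP or calcium. Peptides of the FMRFamide family act through receptors of this kind and are known to modulate muscle contraction in arthropods. Metabotropic glutamate receptor 7, the vertebrate protein that GRM7 is named after, binds glutamate at synapses and lowers cyclic AMP, and glutamate is also the excitatory transmitter at arthropod neuromuscular junctions. The name mth2 points to the methuselah receptors, known in Drosophila for effects on lifespan and stress resistance, and gpr161 to an orphan receptor that in mice sits on primary cilia and restrains Hedgehog signalling.

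The RT-qPCR primers designed by the study are printed because they bound the stretch of each transcript by which its level can be measured apart from sequencing. Each is given 5′ to 3′ in lower case, and no base is marked.
FMRFaR forward: ttactgttgtgtccgccagg
FMRFaR reverse: atgaaggcgagcacgttaca
GRM7 forward: ttgctctctgatctacctgaggat
GRM7 reverse: ttagcctctatcttgatgtcctgc
mth2 forward: agccaccaggaggggatatt
mth2 reverse: gggaactgtcggtgggattt
gpr161 forward: aaatgccccacactcctacg
gpr161 reverse: ccatacacacaaggggctgt
The primers of GRM7 are 24 bases long and those of the other receptors 20 bases. The 4 receptors lie on 4 different chromosomes, CM024127.1, CM024146.1, CM024134.1 and CM024164.1, as read from their IDs.

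The values are FPKM, that is, numbers of sequenced fragments divided by the gene length and the size of the library, so levels of different genes can be set side by side. Whole fragments were recovered from them and totalled 4168786 to 5117320 in the post-molt libraries and 5810163 to 6768435 in the pre-molt libraries, with 15299 to 16011 genes above 0 in each post-molt library and 16922 to 17489 in each pre-molt library. The library size behind the FPKM values was 0.280 to 0.344 times that total in post-molt libraries but 0.633 to 0.819 times in pre-molt libraries. FPKM values summed to 2772125 to 3753646 in post-molt libraries but 1115974 to 1463554 in pre-molt libraries, so that rescaling each library to the same sum (TPM) lowers post-molt levels relative to pre-molt levels. The median log2 difference over all tested genes was -0.09 on FPKM and -0.78 on TPM. Columns with FPKM values bore another tissue prefix than the labels, but they matched the muscle columns of the second deposited table. No gene ID matched the reference gene table (0 IDs), so markers of muscle, nerve, glia and hemocytes were not measured and their part in any level below was not tested. In whole muscle, fewer cells of a type and less RNA per cell cannot be told apart.

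All 4 receptors were higher in each post-molt crab than in any pre-molt crab, by a mean of 5.26 times for FMRFaR, 42.0 times for GRM7, 5.42 times for mth2 and 7.98 times for gpr161. None of the 4 overlapped between stages on TPM either, where the ratios were 2.18, 16.7, 2.30 and 3.20. Over all 17465 tested genes, 14.2% had every post-molt library above every pre-molt library on FPKM, and this share was not counted on TPM. Since the receptors were selected on this contrast, nothing is read from their count.

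FMRFaR, named as the receptor of FMRFamide peptides, had 89.2, 67.7 and 59.0 FPKM in the post-molt crabs, against 17.8, 12.4 and 10.8 FPKM in the pre-molt crabs. The means were 72.0 ± 15.6 FPKM in post-molt crabs against 13.7 ± 3.63 FPKM in pre-molt muscle (SD, n = 3 each), and the lowest post-molt level was 3.32 times the highest pre-molt level. On TPM this gap between the groups shrank to 1.22 times. The levels rested on 196, 101 and 86 fragments in post-molt crabs against 100, 57 and 67 fragments in pre-molt libraries.

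GRM7, the glutamate receptor by name, had the widest gap of the 4. It had 15.04, 10.1 and 11.0 FPKM in post-molt crabs, against 0.251, 0.246 and 0.365 FPKM in pre-molt crabs, averaging 12.1 ± 2.61 FPKM in the post-molt stage and 0.287 ± 0.0677 FPKM in the pre-molt stage (SD, n = 3 each). Over a gene of 8844 bases these levels stood for 234, 107 and 114 fragments in post-molt libraries, against 10, 8 and 16 fragments in pre-molt libraries. With exact 95% Poisson intervals, which cover counting error only, the 8 pre-molt fragments allowed 3.45 to 15.8 and the 16 fragments 9.15 to 26.0. GRM7 was thus detected in every pre-molt crab, and the 3 pre-molt counts overlapped within counting error. Its lowest post-molt level was 27.7 times its highest pre-molt level on FPKM and 8.98 times on TPM.

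The methuselah-type receptor mth2 was close to FMRFaR in level. It had 101, 55.7 and 47.5 FPKM in post-molt crabs, against 15.6, 12.5 and 9.55 FPKM in pre-molt crabs, averaging 68.0 ± 28.7 FPKM in the post-molt stage and 12.5 ± 3.002 FPKM in the pre-molt stage (SD, n = 3 each). It had the most fragments of the 4, with 690, 259 and 216 in post-molt crabs against 273, 179 and 184 in pre-molt libraries. The lowest post-molt level was 3.05 times the highest pre-molt level on FPKM, and 1.12 times on TPM, the narrowest gap of the 4 receptors.

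The orphan receptor gpr161 was the lowest of the 4 in post-molt muscle. It had 8.50, 4.50 and 4.76 FPKM in post-molt crabs, against 0.893, 0.365 and 0.969 FPKM in pre-molt crabs, averaging 5.92 ± 2.24 FPKM in the post-molt stage and 0.742 ± 0.329 FPKM in the pre-molt stage (SD, n = 3 each). These levels rested on 78, 28 and 29 fragments in post-molt crabs against 21, 7 and 25 fragments in pre-molt libraries, and the 7 fragments carried an exact 95% Poisson interval of 2.81 to 14.4. The groups did not overlap, and the lowest post-molt level was 4.64 times the highest pre-molt level on FPKM and 1.46 times on TPM.

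**Figure D1:**
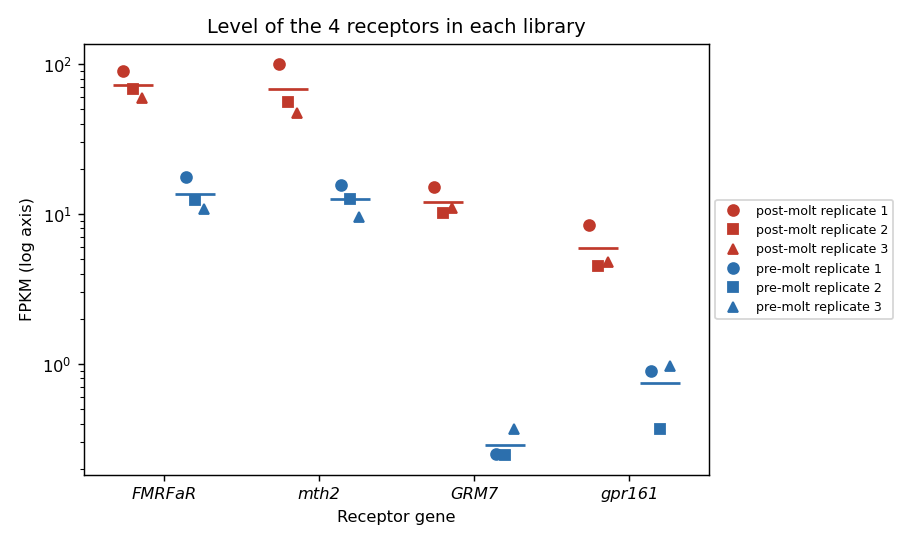
FPKM of FMRFaR, GRM7, mth2 and gpr161 (log axis) in each post-molt and each pre-molt crab, with 1 point per library and the mean of each stage. All 4 receptors sit higher in every post-molt crab, and the gap is widest for GRM7, at 10.1 to 15.04 FPKM in post-molt crabs against 0.246 to 0.365 FPKM in pre-molt crabs.

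FMRFaR and mth2 were the upper pair of the 4 receptors and GRM7 and gpr161 the lower pair. FMRFaR and mth2 overlapped in both stages, so their order is not set by these libraries. Below them in post-molt muscle came GRM7, whose lowest level of 10.1 FPKM was above the highest level of gpr161, 8.50 FPKM. In pre-molt muscle this lower pair stood the other way round by mean, with gpr161 above GRM7, and the lowest gpr161 library and the highest GRM7 library were both at 0.365 FPKM. The ratio of GRM7 to gpr161 within a library was 2.11 ± 0.300 in post-molt crabs against 0.444 ± 0.205 in pre-molt crabs (SD, n = 3 each). The ratio of FMRFaR to mth2 was 1.11 ± 0.198 in post-molt crabs against 1.09 ± 0.0843 in pre-molt crabs. Such ratios within a library do not depend on how libraries are scaled. Summed over the 4 receptors, the level was 214, 138 and 122 FPKM in post-molt crabs, against 34.5, 25.5 and 21.7 FPKM in pre-molt crabs.

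The order of genes within a library does not depend on the scaling of libraries either, but which 18729 genes are listed does. Each listed gene reached at least 1.00 FPKM in some library. GRM7 and gpr161 were below that in every pre-molt library, so they are listed through their post-molt levels. Their low pre-molt positions follow in part from this. In each pre-molt library 16922 to 17489 listed genes were above 0, so GRM7 stood not far above the undetected genes there. FMRFaR was higher than 92.2% to 93.6% of listed genes in post-molt crabs against 77.2% to 84.0% in pre-molt crabs, and mth2 was higher than 90.9% to 94.0% in post-molt crabs against 75.2% to 82.3% in pre-molt crabs. Both were therefore among the more abundant listed genes in every library. GRM7 was higher than 73.9% to 79.2% of listed genes in post-molt crabs but only 9.34% to 11.3% in pre-molt crabs. It took rank 3896, 4882 and 4578 in the post-molt libraries and rank 16980, 16610 and 16864 in the pre-molt libraries, counted from the highest gene. For gpr161 the share of genes below it was 58.3% to 71.2% in post-molt crabs against 13.1% to 21.7% in pre-molt crabs. By rank of the stage mean, the order was FMRFaR 1339, mth2 1383, GRM7 4449 and gpr161 6693 in post-molt muscle, and FMRFaR 3594, mth2 3843, gpr161 15845 and GRM7 17533 in pre-molt muscle.

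**Figure D2:**
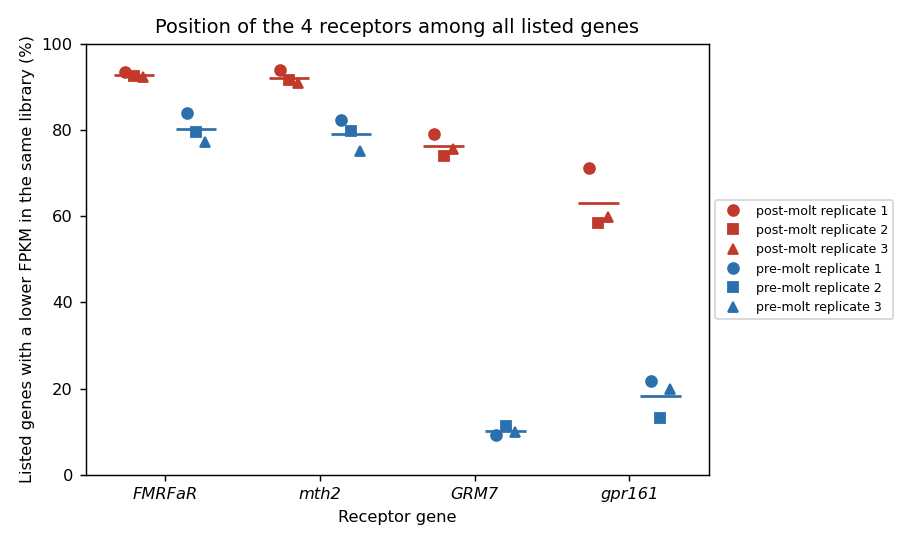
Share of the 18729 listed genes that lie below each receptor (percent) in every post-molt and pre-molt library. For a given list this measure does not change with the scaling of libraries, but GRM7 and gpr161 are listed through their post-molt levels. FMRFaR and mth2 stay above 75.2% of genes in all libraries, while GRM7 stands above 73.9% to 79.2% of genes in post-molt crabs against 9.34% to 11.3% in pre-molt crabs.

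Among crabs of 1 stage, the receptors varied to different degrees. The coefficient of variation of FPKM was 21.6% in post-molt crabs against 26.5% in pre-molt crabs for FMRFaR, and 21.7% in post-molt crabs against 23.6% in pre-molt crabs for GRM7. It was 42.2% in post-molt against 24.0% in pre-molt crabs for mth2, and 37.9% in post-molt against 44.3% in pre-molt crabs for gpr161. The median over all tested genes was 47.3% in post-molt crabs against 33.2% in pre-molt libraries. On FPKM the 4 receptors lay below it in post-molt muscle, and all but gpr161 lay below it in pre-molt muscle. Choice on a stage difference favours genes with little spread within a stage, so nothing is read from this. On TPM the post-molt means were 22.6 ± 8.59 for FMRFaR, 3.77 ± 1.43 for GRM7, 21.8 ± 12.8 for mth2 and 1.88 ± 1.03 for gpr161 (SD, n = 3 each). The median spread of all genes was not taken on TPM. Counting error alone gives a ratio of chi-square to degrees of freedom near 1, and this ratio was 66.3 in post-molt crabs against 13.3 in pre-molt crabs for mth2. For GRM7 it was 7.29 in post-molt crabs against 0.638 in pre-molt crabs, so the pre-molt crabs differed in GRM7 by no more than counting error.

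The receptors shared parts of their order among crabs. Post-molt replicate 1 had the highest level of all 4, whereas it was the highest post-molt library for 32.4% of all tested genes. It was also the deepest post-molt library, with 5117320 fragments, and had the lowest FPKM sum, and their part in these values was not tested. On FPKM, FMRFaR and mth2 had the same order of crabs in both stages, with replicate 1 highest and replicate 3 lowest each time. GRM7 and gpr161 also shared an order on FPKM, with replicate 1 highest and replicate 2 lowest among post-molt crabs, and replicate 3 highest and replicate 2 lowest among pre-molt crabs. Some of these places rested on near ties. Post-molt replicates 2 and 3 had 28 and 29 fragments for gpr161 and 107 and 114 for GRM7. Pre-molt replicates 1 and 2 had 10 and 8 for GRM7, within counting error. The lowest crab depended on the scaling. On TPM all 4 receptors were lowest in post-molt replicate 3 and in pre-molt replicate 2. Near ties were among these, with mth2 at 8.54 in pre-molt replicate 2 against 8.56 in pre-molt replicate 3. GRM7 was at 2.94 in post-molt replicate 3 against 2.96 in post-molt replicate 2. The share of all genes lowest in each library was not counted. In pre-molt crabs on TPM, FMRFaR and mth2 were still highest in replicate 1, and GRM7 and gpr161 in replicate 3. On the log2 scale the level of gpr161 in pre-molt replicate 2 lay -0.90 from its stage mean, the farthest of all values.

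Over the 6 libraries, Pearson's r of log2 FPKM, with no pseudocount, between receptors lay between 0.937, for mth2 with gpr161, and 0.991, for FMRFaR with mth2. The points share their libraries and the stage difference by which the receptors were chosen, so high values follow in part from the choice. With the stage means taken away, r was 0.922 for FMRFaR with mth2 and 0.736 for GRM7 with gpr161. Across the pairs it was 0.434 for FMRFaR with gpr161, 0.387 for mth2 with gpr161, 0.196 for GRM7 with mth2 and -0.01 for FMRFaR with GRM7, over 6 points that hold 3 crabs a stage and share depth and scaling. The low values depended on the scale, which was varied after seeing the data. For FMRFaR with GRM7, r of the deviations was 0.41 on log2(FPKM + 1) and 0.54 on log2 TPM, and for GRM7 with mth2 it was 0.65 and 0.57. The pair FMRFaR and mth2 had the highest r of deviations on all 3 scales, with 0.923 on log2(FPKM + 1) and 0.960 on log2 TPM, and GRM7 with gpr161 the next, with 0.886 and 0.855. In pre-molt muscle the deviations of GRM7 rested on 8 to 16 fragments per library. The order of crabs is tied to the scaling as well, since on TPM the pre-molt values of FMRFaR were 12.9, 8.48 and 9.72, with replicate 2 and not replicate 3 lowest.

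**Figure D3:**
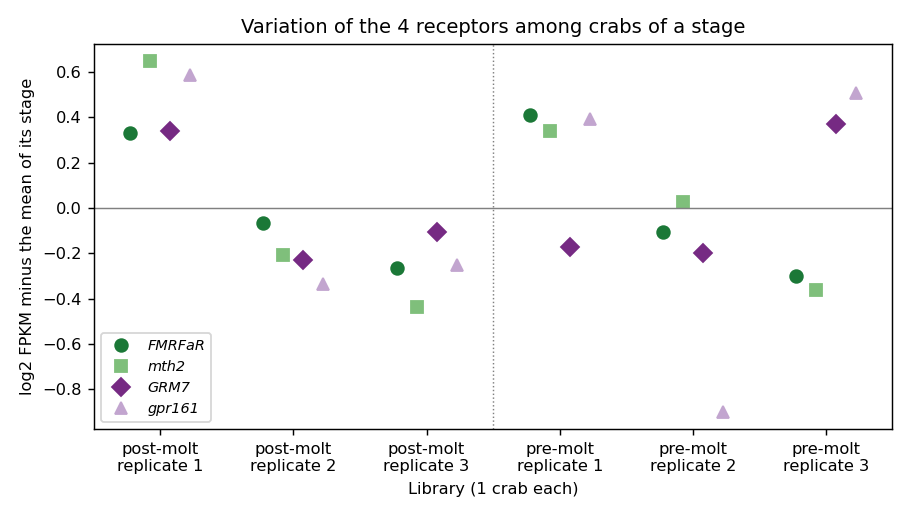
Level of each receptor in each crab as log2 FPKM minus the mean of its stage, with post-molt crabs on the left and pre-molt crabs on the right. Post-molt replicate 1 is above the stage mean for all 4 receptors, and gpr161 in pre-molt replicate 2, at -0.90, lies farthest from its mean.

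The genes most like each receptor were sought by Pearson's r of log2(FPKM + 1) over the 6 libraries among 7393 genes with a mean FPKM of at least 5. A high r was common, with 531 genes at r of 0.95 or more for FMRFaR, 610 for GRM7, 389 for mth2 and 420 for gpr161, and on TPM these counts were 35, 330, 18 and 45. Each r holds the stage difference by which the receptors were chosen, so high values follow in part from the choice. The 3 closest to FMRFaR were evm.TU.CM024151.1.135 and evm.TU.CM024134.1.71, both at r = 0.999, and evm.TU.CM024163.1.3 at r = 0.998. The closest of them had 32.2 ± 6.92 FPKM in post-molt crabs against 5.13 ± 1.72 FPKM in pre-molt crabs. In that order mth2 was number 19 for FMRFaR, and FMRFaR was number 9 for mth2. No function is given for these genes in the sources used here.

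The 3 genes most like GRM7 were evm.TU.CM024160.1.499, evm.TU.CM024161.1.136 and evm.TU.CM024132.1.98, each at r = 0.999. On TPM their r was 0.998, 0.994 and 0.997, so r changed little with the scaling, but on both scales it holds the stage difference. The first and the third of these genes were close to 0 in pre-molt muscle, while evm.TU.CM024161.1.136 was low but above GRM7 there. The first, evm.TU.CM024160.1.499, had 11.1 ± 2.40 FPKM in post-molt crabs, against 0.0555 ± 0.00861 FPKM in pre-molt crabs, and evm.TU.CM024161.1.136 had 585 ± 278 FPKM in post-molt crabs, against 1.20 ± 0.299 FPKM in pre-molt crabs. The third, evm.TU.CM024132.1.98, had 11.4 ± 2.61 FPKM in post-molt crabs and was listed at 0 in all pre-molt crabs.

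For mth2 the 3 closest genes were evm.TU.CM024164.1.235 at r = 0.997, and evm.TU.CM024156.1.442 and evm.TU.CM024140.1.69, both at r = 0.995. The first of them depended on the scaling, with r = 0.225 on TPM, whereas the others kept 0.959 and 0.9751. For gpr161 they were evm.TU.CM024165.1.144 at r = 0.997, and evm.TU.CM024139.1.236 and evm.TU.CM024131.1.47, both at r = 0.996, and their r on TPM was 0.864, 0.981 and 0.983.

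The pathway list held other candidate genes, 9 in all, of which 8 had values, while SSTR2, a somatostatin receptor by name, was not analysed here. By limma on log2(FPKM + 1), with a Benjamini-Hochberg adjusted p of at most 0.05 and a log2 difference of at least 1, 1 of the 8 rose in post-molt muscle, and 0 fell. Over all tested genes 5.93% rose and 1.6% fell by this rule. The median log2 difference of the 8 was 0.67 on FPKM and turned to -0.23 on TPM, beside -0.09 and -0.78 for all tested genes. On FPKM 3 of the 8 had every post-molt crab above every pre-molt crab, as had 14.2% of all tested genes. The list was put together with results of these samples known and is no independent evidence of a direction.

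The gene that rose was evm.TU.CM024097.1.36, which the study places in the pathway without receptor activity. It had 909, 585 and 406 FPKM in post-molt crabs, against 0.188, 0.230 and 0.514 FPKM in pre-molt crabs. These levels stood for 1888, 825 and 560 fragments in post-molt libraries, against 1, 1 and 3 fragments in pre-molt libraries. The log2 difference was 8.85 (SE 0.35, limma with Benjamini-Hochberg adjusted p = 8.3e-07). Like GRM7 and gpr161, this gene was below 1.00 FPKM in every pre-molt library, so it is listed through its post-molt levels. Its small p therefore holds that choice. A second pathway gene without receptor activity, evm.TU.CM024099.1.306, had 6.88 ± 3.08 FPKM in post-molt crabs against 1.88 ± 0.485 FPKM in pre-molt crabs, without overlap, but did not pass (log2 difference 1.39, limma adjusted p = 0.069). On recovered fragments it passed in edgeR (1.86, adjusted p = 0.00096) and DESeq2 (adjusted p = 0.00057), and in limma without post-molt replicate 2 (1.69, adjusted p = 0.035). In the other 12 of 15 alternatives it did not pass, and on TPM the log2 difference was 0.31 (limma adjusted p = 0.47).

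None of the other candidate receptors with values here passed. Of these the study kept moody and Kpna6 as receptors after predicting their membrane helices, but not the rhodopsin-like gene, HTR4 or sky. The rhodopsin-like gene, named after the light receptors, came closest on FPKM. It had 3.52 ± 0.965 FPKM in post-molt crabs against 1.46 ± 0.657 FPKM in pre-molt crabs (SD, n = 3 each, log2 difference 0.89, limma adjusted p = 0.21). The gene moody, named after a glial receptor of the Drosophila blood-brain barrier, had 1.73 ± 0.627 FPKM in post-molt crabs against 0.706 ± 0.495 FPKM in pre-molt crabs (0.70, limma adjusted p = 0.34). The serotonin receptor by name, HTR4, had a log2 difference of 0.42 (limma adjusted p = 0.59), sky 0.65 (limma adjusted p = 0.37) and the pathway gene evm.TU.CM024125.1.103 0.55 (limma adjusted p = 0.36). Kpna6, an importin of nuclear transport by name, was at 5.44 ± 1.04 FPKM in post-molt crabs against 5.27 ± 2.19 FPKM in pre-molt crabs (0.08, limma adjusted p = 0.93). On TPM none of these genes passed either, and every log2 difference was negative. It was -0.03 for the rhodopsin-like gene, -0.01 for moody and -0.89 for Kpna6 (limma adjusted p = 0.93, 0.96 and 0.061). Set beside them, gpr161 was at 5.92 ± 2.24 FPKM in post-molt muscle and so at the level of Kpna6, while FMRFaR and mth2 stood above all of these candidates in post-molt muscle but below evm.TU.CM024097.1.36.

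The neighbours of each receptor were taken as the 5 listed genes on each side by the order number at the end of the gene ID, since coordinates were not used. Counted along the listed genes of its chromosome, GRM7 was gene 37 of 300, mth2 gene 135 of 211 and gpr161 gene 106 of 394, and FMRFaR was gene 122. Of the 40 neighbours, 4 rose in post-molt muscle, 0 fell and 36 did not pass, which is 10% called higher against 5.93% of all tested genes. At an unadjusted p of at most 0.05 there were 12 neighbours, or 30%, against 20.9% of all tested genes. In addition edgeR on recovered fragments called 5 higher and 1 lower, where it called 8.77% of all tested genes higher and 2.49% lower. DESeq2 called 5 higher and 1 lower, against 7.89% and 1.65% of all genes. On TPM limma called 0 higher and 8 lower, where 3.44% of all tested genes were called higher and 33.7% lower. In 13 of the 40, or 32.5%, every post-molt crab was above every pre-molt crab, against 14.2% of all tested genes, and in 3, or 7.5%, every post-molt crab was below, against 12.5% of all. The median log2 difference of the neighbours was 0.26 on FPKM, beside -0.09 for all tested genes, and turned to -0.42 on TPM, beside -0.78 for all tested genes.

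**Figure D4:**
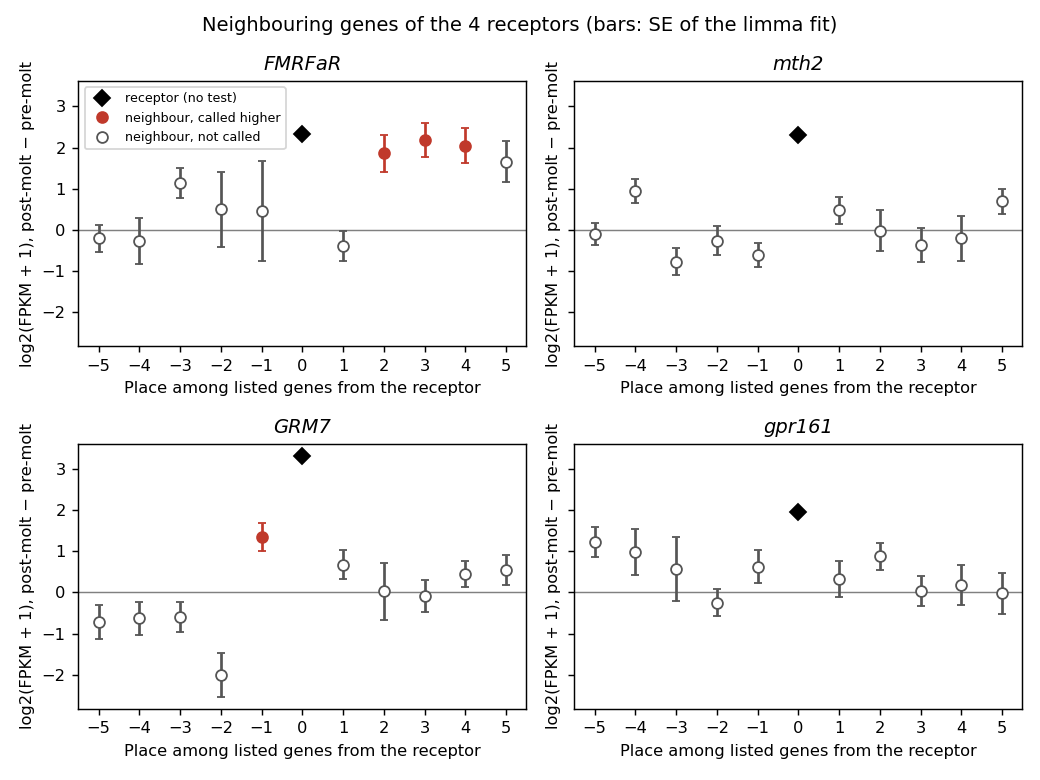
Log2 difference of post-molt minus pre-molt muscle, on log2(FPKM + 1), for the 5 listed genes on each side of FMRFaR, GRM7, mth2 and gpr161, by place from the receptor. The genes that rose by limma lie 2, 3 and 4 places after FMRFaR and 1 place before GRM7, and no neighbour of mth2 or gpr161 was called by limma on FPKM.

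The neighbours that rose were 3 of the 10 beside FMRFaR and 1 of the 10 beside GRM7, with 0 beside mth2 and 0 beside gpr161. The gene evm.TU.CM024127.1.250, 3 places after FMRFaR, had 14.99, 9.75 and 13.1 FPKM in post-molt crabs, against 2.55, 0.691 and 3.30 FPKM in pre-molt crabs (log2 difference 2.18, SE 0.41, limma with Benjamini-Hochberg adjusted p = 0.013). Those around it, evm.TU.CM024127.1.249 with 9.26 ± 3.98 FPKM in post-molt crabs against 1.79 ± 1.03 FPKM in pre-molt crabs (1.86, limma adjusted p = 0.040), and evm.TU.CM024127.1.251 with 12.2 ± 4.97 FPKM in post-molt crabs against 2.22 ± 1.17 FPKM in pre-molt crabs (2.05, limma adjusted p = 0.019), also rose. Without post-molt replicate 1 none of the 4 passed, and the limma adjusted p was 0.053 for evm.TU.CM024127.1.250. On TPM none passed either, with adjusted p = 0.082 for the same gene.

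Next to GRM7, evm.TU.CM024146.1.115 had 6.67, 5.17 and 3.70 FPKM in post-molt crabs, against 1.51, 1.01 and 1.62 FPKM in pre-molt crabs (1.36, SE 0.34, limma adjusted p = 0.046). It rested on 19, 10 and 7 fragments in post-molt crabs against 11, 6 and 13 fragments in pre-molt libraries. Whether it overlaps GRM7 was not examined, and since strand use in the counting is not given, reads of overlapping genes cannot be told apart. This call was the least stable of the 4 and was kept in 5 of 15 alternatives. On the other side evm.TU.CM024146.1.120 had 2.34 FPKM in post-molt crabs against 1.12 FPKM in pre-molt crabs on average (0.68, limma adjusted p = 0.32).

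The remaining neighbours were not called by limma on FPKM. Among them, evm.TU.CM024127.1.237, 3 places before FMRFaR, had 1.62, 3.76 and 1.75 FPKM in post-molt crabs, against 0.543, 0.666 and 0.247 FPKM in pre-molt crabs. It was called higher by edgeR (log2 difference 2.22, adjusted p = 0.019) and DESeq2 (adjusted p = 0.039) but not by limma (1.14, adjusted p = 0.12), and is named after its values were seen. These levels rested on 7, 11 and 5 fragments in post-molt crabs against 6, 6 and 3 fragments in pre-molt libraries. The gene was below 1.00 FPKM in every pre-molt library, so it is listed through its post-molt levels. On TPM the log2 difference of evm.TU.CM024127.1.237 was 0.33 (limma adjusted p = 0.28). Directly before FMRFaR, evm.TU.CM024127.1.242 varied widely, with 3.49, 209 and 84.0 FPKM in post-molt crabs, against 43.1, 43.9 and 14.5 FPKM in pre-molt crabs (0.46, limma adjusted p = 0.87), and directly after it evm.TU.CM024127.1.245 averaged 2.40 FPKM in post-molt crabs against 3.25 FPKM in pre-molt crabs (-0.39, limma adjusted p = 0.60). Beside mth2, evm.TU.CM024134.1.313 had 4.96 ± 0.858 FPKM in post-molt crabs against 8.11 ± 0.718 FPKM in pre-molt crabs (-0.62, limma adjusted p = 0.27) and evm.TU.CM024134.1.315 averaged 1.41 FPKM in post-molt crabs against 0.725 FPKM in pre-molt crabs (0.47, limma adjusted p = 0.47). On TPM the differences of evm.TU.CM024127.1.245 (-1.02, limma adjusted p = 0.027) and evm.TU.CM024134.1.313 (-1.52, limma adjusted p = 0.0069) passed as lower, and that of evm.TU.CM024134.1.315 turned to -0.14.

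The most abundant neighbour of any receptor was evm.TU.CM024134.1.319, 5 places after mth2, with 1637 ± 372 FPKM in post-molt crabs against 1008 ± 176.2 FPKM in pre-molt crabs (0.69, limma adjusted p = 0.23). Beside gpr161, evm.TU.CM024164.1.175 had 6.21 ± 2.79 FPKM in post-molt crabs against 3.47 ± 1.09 FPKM in pre-molt crabs (0.63, limma adjusted p = 0.42), and evm.TU.CM024164.1.177 averaged 1.11 FPKM in post-molt crabs against 0.640 FPKM in pre-molt crabs (0.33, limma adjusted p = 0.72). The most abundant neighbours of gpr161 and GRM7 were evm.TU.CM024164.1.174, with 46.9 ± 9.74 FPKM in post-molt crabs against 56.7 ± 18.1 FPKM in pre-molt crabs (-0.25, limma adjusted p = 0.72), and evm.TU.CM024146.1.123, with 6.31 ± 1.42 FPKM in post-molt crabs against 4.30 ± 0.732 FPKM in pre-molt crabs (0.46, limma adjusted p = 0.46). None of these passed in limma on FPKM, and on TPM evm.TU.CM024164.1.174 passed as lower (-1.51, limma adjusted p = 0.0093).

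The genes that rose after FMRFaR were part of a longer run, which was chosen after its values were seen and gets no test as a group. From order number 249 to 256 there were 8 listed genes, at ratios of 4.03 to 8.10. All 8 had every post-molt crab above every pre-molt crab, and 7 of them were called higher by limma. The exception was evm.TU.CM024127.1.252, with 1 to 4 fragments per library (log2 difference 1.65, limma adjusted p = 0.093). Over all tested genes, 14.2% had every post-molt crab above every pre-molt crab and 5.93% were called higher. Since the run was picked by these values, nothing is read from its counts. At the far end evm.TU.CM024127.1.256 had 18.2 ± 6.26 FPKM in post-molt crabs against 3.04 ± 1.42 FPKM in pre-molt crabs (2.27, limma adjusted p = 0.0087). The run was bounded by evm.TU.CM024127.1.245, between it and FMRFaR, and by evm.TU.CM024127.1.258, with 2.55 FPKM in post-molt crabs against 3.78 FPKM in pre-molt crabs (-0.44, limma adjusted p = 0.48).

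The run and FMRFaR differed on FPKM in which crab was lowest. Pre-molt replicate 2 was the lowest library for 7 of the 8 genes, whereas FMRFaR was lowest in pre-molt replicate 3, although on TPM it too was lowest in pre-molt replicate 2. The share of all tested genes lowest in pre-molt replicate 2 was not counted, so nothing is read from this count. That library had the lowest median log2 deviation of its stage over all tested genes, -0.05. Pearson's r of each gene with FMRFaR over the 6 libraries, which share the stage difference, was 0.856 to 0.951. On TPM 0 of the 8 passed, with limma adjusted p of 0.052 to 0.32.

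**Figure D5:**
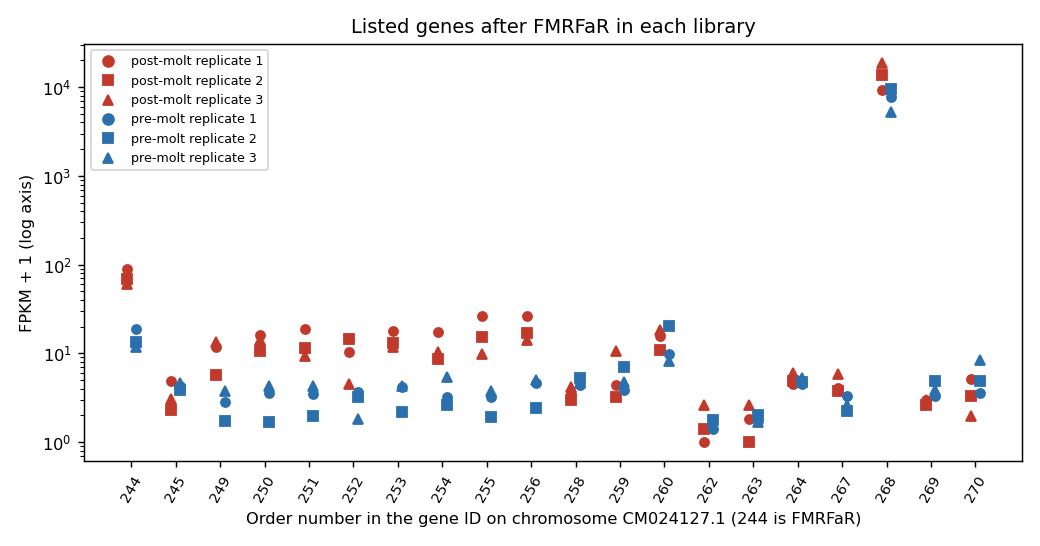
FPKM + 1 (log axis) of FMRFaR and of the listed genes after it on the same chromosome, by order number in the gene ID, in each post-molt and each pre-molt crab. From order number 249 to 256 all 8 listed genes have every post-molt crab above every pre-molt crab, and this is not so for evm.TU.CM024127.1.245 before them or evm.TU.CM024127.1.258 after them. Over all tested genes 14.2% have it, and the 8 were picked after their values were seen.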

How the data were processed

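Per the labels and the study's methods, total RNA of muscle was sequenced as read pairs, aligned with HISAT2 2.0.5 and counted per gene with featureCounts 1.5.0-p3. For strand, a setting was not given in the sources used here. FPKM of 18729 genes were deposited by the authors, and each gene reached at least 1.00 FPKM in some library. A second table deposited by the authors holds, for 1684 genes, their own comparison, which was not used, the gene length and a normalized signal per library (counts divided by a size factor). From both, whole fragments (counts) were recovered for 100% of values within a tolerance of 0.001, and lengths were recovered exactly for 98.7% of those genes.

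The main test was limma 3.58.1 (R 4.3.3) on log2(FPKM + 1), which understates changes of low genes, over the 17465 genes with a mean FPKM of at least 0.5, with Benjamini-Hochberg adjustment. edgeR 4.0.16 (quasi-likelihood) called 8.77% of genes higher and 2.49% lower, DESeq2 1.42.0 7.89% and 1.65%, and limma on TPM 3.44% and 33.7%. The code was tested on simulated data.

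Named genes were the receptors, the candidate list, each neighbour that was called, flanking or most abundant, and the 3 genes most like each receptor. The members and lists were chosen with earlier results of these data known. Groups and replicate numbers came from the sample titles. Crabs are separate animals, 3 per stage. Replicate numbers did not pair the libraries. Of the study's candidates, 1 is not reported here.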

Additional observations from a re-analysis of the deposited data

How the results depend on the processing

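For the 4 receptors the alternatives were rescaling to TPM and leaving out 1 library. Their stages did not overlap on FPKM or on TPM, so these could not reverse the direction. Rescaling to TPM moved the ratio of post-molt to pre-molt means to 2.18 for FMRFaR, 16.7 for GRM7, 2.30 for mth2 and 3.20 for gpr161, while leaving out 1 library at a time gave 4.63 to 6.19, 36.8 to 48.6, 4.12 to 6.24 and 6.24 to 9.41. The 4 neighbours called higher became 2 with a pseudocount of 0.1, 0 on TPM, 2 of 19 when only order numbers within 5 were taken, 8 of 77 with 10 genes on each side and, chosen after seeing the data, 1 of 30 without the neighbours of FMRFaR. Leaving out 1 library gave 0 to 5, with 0 without post-molt replicate 1, 1 without pre-molt replicate 1 or 2 and 2 without pre-molt replicate 3. Neighbours called lower, 0 in limma, were 1 in DESeq2, in edgeR and after quantile normalization, 8 on TPM and 0 to 1 on leaving out a library. The candidate list had 2 genes called higher in edgeR and DESeq2, and 1 to 2 on leaving out a library. Same-numbered libraries did not deviate together (r = -0.03, -0.03 and -0.05), and a replicate block left 3 neighbours and 1 candidate called higher, with the call of evm.TU.CM024146.1.115 lost (limma adjusted p = 0.11). The causes were not tested, except that fewer genes or libraries enter some alternatives. Depth limits GRM7 and gpr161 in pre-molt muscle, with 7 to 25 fragments per library, and the calls of neighbours with few fragments, 6 of 40 of which had under 20 in all libraries together.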

Other observations

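A pair of neighbours outside the naming rule had post-molt levels below all pre-molt levels and were picked after their values were seen. The fused gene model evm.TU.CM024134.1.301_evm.TU.CM024134.1.302, 3 places before mth2, had 0.182 ± 0.0646 FPKM in post-molt crabs against 1.02 ± 0.0747 FPKM in pre-molt crabs (SD, n = 3 each). It was called lower by edgeR (log2 difference -2.45, adjusted p = 0.0045) and DESeq2 (adjusted p = 0.023) on recovered fragments but not by limma (-0.78, adjusted p = 0.22). It was below 1.00 FPKM in every post-molt crab, so it is listed through its pre-molt levels. The gene evm.TU.CM024146.1.107, 2 places before GRM7, had 0, 2.52 and 0 FPKM in post-molt crabs, against 5.02, 3.69 and 7.01 FPKM in pre-molt crabs (-2.001, limma adjusted p = 0.061), and on TPM it was called lower (-2.03, limma adjusted p = 0.0041).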
